A study of Mus musculus with 37 samples.

Results

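Cnr1, the cannabinoid receptor CB1, was described here together with the 7 enzymes that make and break down its main ligands: Dagla, Daglb, Mgll, Abhd6, Abhd12, Napepld and Faah. Cnr1 was chosen by its slope on copy number in the olfactory bulb in these same arrays, so its bulb values across genotypes are given as a description with no test. The enzymes were chosen by name. All 8 genes were measured, each by 1 probe set with a single listed symbol, among 19938 genes on the array. None of the 8 lies on chromosome 7, which carries the rearranged segment.

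Total RNA was profiled on 37 Affymetrix arrays from 4 brain regions, the bulb (olfactory), cerebellum, cortex and brain stem, of 8 male mice, all F1 hybrids of C57BL/6N and 129Sv. The segment of chromosome 7 that matches human 16p11.2 was present in 1 copy in the 2 df/+ mice (heterozygous deletion), in 2 copies in the 3 +/+ mice (wild type) and in 3 copies in the 3 dp/+ mice (heterozygous duplication). The labels give a biological number within each region and copy number and state no age. Samples of a genotype with the same number were taken as the same mouse, which the labels do not spell out. The arrays make up 31 region samples, since 6 samples were hybridised on 2 arrays each and dp/+ mouse 3 has no cortex. The bulb of +/+ mouse 3 has a single array, labelled as technical repeat 2.

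CB1 is a G-protein-coupled receptor that sits mainly on presynaptic endings. Neurons release 2-arachidonoylglycerol (2-AG) and anandamide from their membranes on demand, and these lipids travel back across the synapse, where CB1 closes calcium channels and lowers transmitter release. In the brain CB1 is known for high levels on cholecystokinin-positive interneurons, on parallel fibre endings of cerebellar granule cells and, at lower levels, on cortical glutamatergic neurons. 2-AG is made by the diacylglycerol lipases Dagla and Daglb and broken down by Mgll, Abhd6 and Abhd12. Napepld is one route to anandamide, and Faah hydrolyses it.

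The tissue labels were checked against marker lists in the +/+ mice. All 10 cerebellar markers and all 7 brain stem markers were highest in their own region, as were 9 of 11 bulb markers (not Slc17a6 or Uchl1) and 9 of 12 cortical markers (not Neurod2, Bcl11b or Rasgrf2). The brain stem of dp/+ mouse 1 stood apart: the mean of its 6 cerebellar granule cell markers was 9.86 on the log2 scale, against 8.47 to 8.82 in the other 7 brain stems, and that of its 4 Purkinje cell markers was 9.13, against 8.05 to 8.39 in the others. In bulk tissue, fewer cells of a type and less RNA per cell cannot be told apart. Where 1 sample had 2 arrays, the 8 genes differed between them by a median of 0.05, and by 0.26 at most, in Cnr1 in the bulb of +/+ mouse 1.

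The starts of Cnr1 are shown because the results turn on this gene and RefSeq gives it more than 1 promoter window. The window tables of build GRCm38.p6 hold 300 bases per start, 250 before it and 50 after, and they matched 6 of the 8 genes with 10 windows. Dagla and Abhd12 were not matched. The 30 bases just upstream of each Cnr1 start, all on the plus strand of chromosome 4, read as follows, with the dinucleotide CG in capitals.
Cnr1 start 1, chr4:33924234-33924263: CGgatccCGacCGccCGgCGCGtgacctcc
Cnr1 start 2, chr4:33924614-33924643: tcataaatgggactggagCGagagCGagcc
Cnr1 start 3, chr4:33926350-33926379: cctccctccaCGccccaccttctctaactc
The motif searched was CG, which reads the same on both strands. The whole window of start 1 holds 40 CG dinucleotides and has a GC content of 76.3%, and 3.91% of all 32851 windows hold as many. Start 2 holds 33 (8.56% of windows hold as many) and start 3 holds 5 (62.0%), against a median of 7 over all windows. The same count was 42 and 32 in the windows of Mgll, 26 and 24 in those of Abhd6, 28 for Napepld, 16 for Faah and 11 for Daglb. The arrays have 1 value per gene and do not tell the starts apart.

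In wild-type brain Cnr1 was by far the most regional of the 8 genes. It was highest in the cerebellum, followed by the cortex, the brain stem and the olfactory bulb, and the cerebellar level was 7.41 times the bulb level. In the cerebellum the +/+ mice had log2 values of 11.02, 11.02 and 11.06. In the cortex they had 10.08, 10.12 and 9.89, in the brain stem 8.95, 9.18 and 9.02, and in the bulb 7.89, 8.39 and 8.15. No value of 1 region overlapped with that of another in these mice. limma's F test over the regions gave an adjusted p of 5.58e-12, and 58.0% of all 19938 genes passed the same test.

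Each step in this order was larger than its error. Cnr1 in the bulb was 0.91 below the brain stem on the log2 scale (SE 0.10, 95% interval of the difference -1.12 to -0.69, limma adjusted p = 2.93e-06), which is 53.4% of the brain stem level. The cortex was 0.98 above the brain stem (0.77 to 1.20, limma adjusted p = 2.97e-06). The cortex in turn held 50.0% of the cerebellar level (limma adjusted p = 6.17e-07). The order was nearly the same in all genotypes: the cerebellum was highest in 8 of 8 mice and the bulb lowest in 7 of 8. The exception was df/+ mouse 2, whose bulb, at 9.13, lay above its brain stem, at 8.97.

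**Figure D1:**
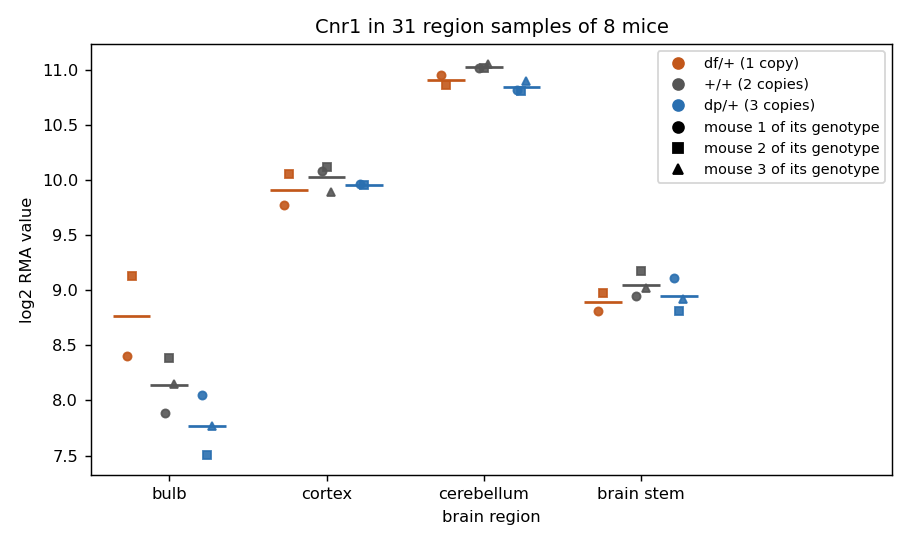
Cnr1 level (log2 RMA value, vertical axis) in each region sample, by region and genotype; points are mice and bars are genotype means. The regions lie in separate bands in the +/+ mice, from 7.89 to 8.39 in the bulb up to 11.02 to 11.06 in the cerebellum, and the df/+ bulbs reach 9.13.

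Across copy number, the bulb values that chose Cnr1 were 8.40 and 9.13 in the df/+ mice, 7.89, 8.39 and 8.15 in the +/+ mice, and 8.05, 7.50 and 7.76 in the dp/+ mice. The df/+ mice averaged 8.77 ± 0.51 (SD, n = 2), which is 154% of the +/+ mean of 8.14 ± 0.25 (n = 3), and the dp/+ mice averaged 7.77 ± 0.27 (n = 3), which is 77.3%. The groups were close at their edges: df/+ mouse 1 (8.40) was just above +/+ mouse 2 (8.39), and dp/+ mouse 1 (8.05) was above +/+ mouse 1 (7.89). The fitted slope on log2 copies, where 1 is proportional to copy number and -1 inverse, was -0.63 (SE 0.10). Without df/+ mouse 2 it was -0.42, and without df/+ mouse 1 it was -0.83. The df/+ difference from +/+, 0.62 on the log2 scale, was 0.26 without df/+ mouse 2 and 0.99 without df/+ mouse 1. Of all genes, 0.246% passed the slope test in the bulb, and 0.0502% passed the test that slopes differ between regions; both rest on the contrast that chose Cnr1 and are given for background only.

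Outside the bulb, where Cnr1 was not selected, no relation to copy number was detected. The slope of Cnr1 was 0.04 for cortex (95% interval -0.17 to 0.25), -0.04 for cerebellum (-0.24 to 0.16) and 0.04 for brain stem (-0.16 to 0.24). With 1 value per mouse averaged over these 3 regions, the slope was 0.01 (SE 0.05, interval -0.11 to 0.12, limma adjusted p = 0.982), while 0.105% of all genes passed.

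The cerebellum showed a different arrangement of Cnr1 from the bulb. Both altered genotypes averaged below wild type, as they also did in cortex and brain stem. The values were 10.95 and 10.87 in df/+ mice, 11.02, 11.02 and 11.06 in +/+ mice, and 10.82, 10.81 and 10.90 in dp/+ mice, so both altered genotypes lay below every +/+ mouse. Of all genes, 20.3% had all dp/+ cerebella below all +/+ cerebella, and for df/+ mice no such share was computed. The df/+ mean was 91.8% and the dp/+ mean 87.7% of the +/+ mean, and neither difference passed limma's test (adjusted p = 0.854 and 0.359). In the cortex the +/+ mean was 10.03 ± 0.12 (n = 3), and the df/+ and dp/+ means were 9.91 and 9.96. In the brain stem the corresponding means were 9.05, 8.89 and 8.95, with overlapping mice. The dp/+ difference there was -0.10, and without dp/+ mouse 1, whose brain stem carried the cerebellar markers, it was -0.18 (limma adjusted p = 1 both times).

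Markers of the cells that could carry Cnr1 in the bulb were read in the same samples. For 12 measured forebrain glutamatergic genes, the mean log2 level was 9.34 and 9.36 in the df/+ bulbs, 9.06, 9.35 and 9.28 in the +/+ bulbs and 9.18, 9.14 and 9.09 in the dp/+ bulbs. Both df/+ mice and +/+ mouse 2 were at the top, and +/+ mouse 1, which had the lowest Cnr1 of the wild types, was lowest of all 8. Yet df/+ mouse 2 and +/+ mouse 2, nearly level on the list, had Cnr1 of 9.13 and 8.39. The lowest Cnr1, 7.50, was in dp/+ mouse 2, at 9.14 on the list. Across the 8 bulbs the mean of the list and Cnr1 had a Pearson r of 0.82. It describes the bulb values that chose Cnr1, in shared mice, arrays and tissue pieces. How many other genes or lists reach such an r with Cnr1 was not counted. Of the 12 genes, 11 had a negative bulb slope, with a median of -0.07 against 0.01 over all genes, and 0 passed limma's test. The steepest were Tbr1 (-0.51), Neurod2 (-0.40, limma adjusted p = 0.0705) and Slc17a7 (-0.23), a transcription factor pair and a vesicular glutamate transporter. Fezf2 and Rorb stood at -0.11, Camk2a at -0.08, Neurod6 at -0.06, Cux2 at -0.05, Crym at -0.04, Bcl11b and Emx1 at -0.03 and Rasgrf2 at 0.03.

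The other lists in the bulb were read by their ranges. The 6 markers of cholecystokinin-type interneurons averaged 9.01 to 9.12 in df/+ mice, 9.12 to 9.19 in +/+ mice and 8.97 to 9.04 in dp/+ mice, with 4 of 6 slopes negative and 0 called. The 6 inhibitory neuron markers averaged 11.39 to 11.40, 11.33 to 11.47 and 11.42 to 11.48 in the same order. Mitral and tufted cell markers ran from 10.41 to 10.57 in df/+, from 10.42 to 10.52 in +/+ and from 10.18 to 10.34 in dp/+ mice. Markers of olfactory sensory neurons were higher in +/+ bulbs (9.57 to 9.90) than in df/+ (9.06 to 9.40) or dp/+ bulbs (9.19 to 9.38). The 4 oligodendrocyte markers averaged 10.18 to 10.23 in df/+, 10.20 to 10.54 in +/+ and 9.82 to 10.09 in dp/+ bulbs, and the 4 Purkinje cell markers 7.50 to 7.63, 7.46 to 7.74 and 7.27 to 7.40. All dp/+ bulbs lay below all +/+ bulbs for the cholecystokinin-type, mitral and tufted, sensory neuron, oligodendrocyte and Purkinje lists. Of single genes, 8.82% showed that order. This share is not the background for means of several genes, for which none was computed. The 2 genotypes overlapped for all other lists. Among these were bulb granule and periglomerular cells (dp/+ 11.68 to 11.72, +/+ 11.66 to 11.76) and astrocytes (10.73 to 10.87, 10.78 to 10.79). Microglia (8.29 to 8.43, 8.36 to 8.52) overlapped too. The lowest list in the bulb was that of brain stem neurons, at 6.35 to 6.48, in the low part of the array's range. The part of the listed cell types in the Cnr1 values was not tested.

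The enzymes that make 2-AG were both lowest in the bulb. Dagla, the lipase found near postsynaptic spines, ranged over 1.96-fold between regions of +/+ mice. Its values there were 10.33, 10.25 and 10.26 in the cortex, 10.24, 10.17 and 10.06 in the cerebellum, 9.54, 9.93 and 9.65 in brain stem and 9.07, 9.38 and 9.48 in the bulb (limma F test, adjusted p = 5.09e-06). The cortex and cerebellum did not differ beyond their spread (0.12 on the log2 scale, 95% interval -0.12 to 0.36, limma adjusted p = 0.425), while the bulb was below each other region. Dagla was lowest in the bulb in 8 of 8 mice. Daglb, the second lipase, varied less, over 1.37-fold (limma adjusted p = 0.00371), and was highest in the cerebellum at 9.81, 9.75 and 9.67 and on average lowest in the bulb at 9.27, 9.35 and 9.24. Its bulb and brain stem levels were not told apart (-0.08, interval -0.30 to 0.14).

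Neither lipase passed a test on copy number in any region. In the bulb Dagla had values of 9.39 and 9.49 in df/+ mice and 9.33, 9.47 and 9.31 in dp/+ mice, all inside or near the +/+ range, and its slope was -0.05 (interval -0.20 to 0.10). The bulb slope of Daglb was -0.10 (-0.27 to 0.06). In the cerebellum Daglb was 9.62, 9.62 and 9.46 in dp/+ mice, below the 3 +/+ mice, with a mean of 88.5% of wild type (limma adjusted p = 0.297).

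Mgll, the main 2-AG hydrolase of brain extracts, was highest in the cortex. The +/+ cortices had values of 10.97, 11.01 and 10.97, the bulbs 10.38, 10.88 and 10.62, the cerebella 10.29, 10.23 and 10.31 and the brain stems 10.30, 10.40 and 10.07 (limma F test, adjusted p = 5.15e-05). Cerebellum and brain stem were level with each other (0.02, 95% interval -0.21 to 0.24), and the cortex was 1.65 times the brain stem (limma adjusted p = 9.40e-05). Its order over the regions was thus unlike that of Cnr1, since the cerebellum, where the receptor was highest, was near the bottom for Mgll.

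The largest difference of an enzyme from wild type in the df/+ mice was in Mgll in the brain stem, where they had 10.00 and 9.79 against 10.30, 10.40 and 10.07. Both df/+ mice lay below every +/+ mouse, at 77.8% of the +/+ mean, a difference of -0.36 ± 0.13 (SE, 95% interval -0.63 to -0.10). It did not pass after adjustment (limma adjusted p = 0.704), and 0.211% of all genes did. The dp/+ brain stems, 10.26, 10.09 and 9.92, lay between and overlapped both. In the same brain stems the forebrain glutamatergic list averaged 8.48 and 8.42 in df/+ mice against 9.20, 9.50 and 8.73 in +/+ mice. The dp/+ brain stems averaged 8.93, 8.47 and 8.65, so dp/+ mouse 2 and dp/+ mouse 3 also lay below every +/+ mouse. Of the 12 genes on the list, 4 fell in df/+ by limma's test: Crym (-1.16, adjusted p = 0.000918), Tbr1 (-2.20, 0.00506), Fezf2 (-1.06, 0.0101) and Slc17a7 (-0.77, 0.0214). The count was 0 of 12 without df/+ mouse 2, 1 without df/+ mouse 1, +/+ mouse 1 or +/+ mouse 2, and 7 without +/+ mouse 3. It was also 0 with each region fitted alone and 1 with array weights. The part of those cells in the Mgll values was not tested.

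**Figure D2:**
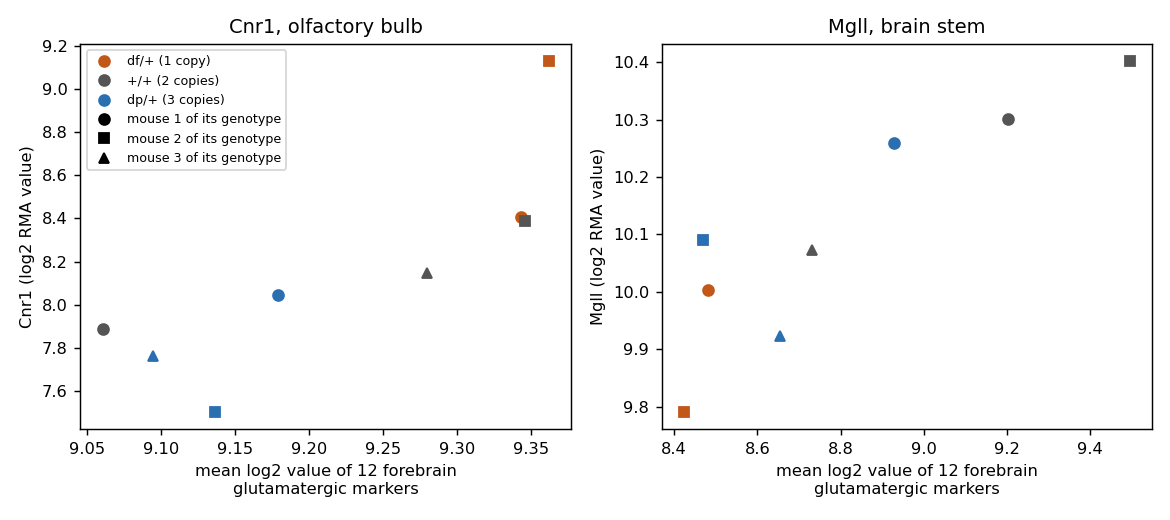
Cnr1 in the olfactory bulb (left) and Mgll in the brain stem (right), each as log2 RMA value on the vertical axis, against the mean log2 value of the 12 measured forebrain glutamatergic markers in the same sample; points are mice, coloured by genotype. The df/+ bulbs lie at the upper right (9.34 and 9.36 on the marker axis) and the df/+ brain stems at the lower left (8.48 and 8.42). The brain stem of dp/+ mouse 2 lies near them on the marker axis (8.47).

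Abhd6, which acts on 2-AG at the postsynaptic membrane, was the flattest of the 8 over the regions. Its range was 1.20-fold and its F test missed the threshold (limma adjusted p = 0.0827), although it was highest in the cerebellum in 8 of 8 mice and passed when all 8 mice entered (0.000217). In the bulb the +/+ mice had 10.54, 10.52 and 10.52, the df/+ mice 10.46 and 10.30, and the dp/+ mice 10.29, 10.26 and 10.33. Both altered genotypes lay below all 3 wild types, at 90.2% and 85.0% of their mean. The dp/+ difference of -0.23 ± 0.08 (SE) had an adjusted p of 0.131 by limma, and the df/+ difference 0.609.

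Abhd12, a lipase also known for clearing lysophosphatidylserine, was lowest in the cerebellum in 8 of 8 mice, the region where Cnr1 was highest. In +/+ mice it had 10.23, 10.31 and 10.35 there, 10.76, 10.66 and 10.65 in the cortex, 10.54, 10.71 and 10.69 in brain stem and 10.51, 10.53 and 10.50 in the bulb (limma F test, adjusted p = 0.00255; 0.0501 without +/+ mouse 2). Cortex and brain stem did not differ beyond their spread (0.04, 95% interval -0.13 to 0.22). In the df/+ mice it was at 110% of wild type both in cerebellum (10.49 and 10.39) and brain stem (10.74 and 10.83), above every +/+ mouse each time, with limma adjusted p of 0.612 and 1. The share of all genes with such an order of 2 df/+ and 3 +/+ mice was not computed.

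Napepld, the phospholipase D that releases anandamide and other acylethanolamines, was highest in the brain stem and cortex. Its +/+ values were 9.83, 10.35 and 10.21 in the brain stem, 10.08, 10.16 and 10.07 in the cortex, 9.64, 9.47 and 9.71 in the bulb and 9.73, 9.54 and 9.34 in the cerebellum (limma F test, adjusted p = 0.000728). The first pair (cortex minus brain stem, -0.03, interval -0.30 to 0.24) and the second pair (bulb minus cerebellum, 0.07, interval -0.20 to 0.34) were each not told apart. Both upper regions exceeded both lower ones. Without +/+ mouse 2 the bulb was no longer called below the cortex (limma adjusted p = 0.0838) or the brain stem (0.14).

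Of the enzymes, Napepld had the largest differences in dp/+ mice. In the bulb they had 9.30, 9.36 and 9.08, below all 3 +/+ mice, a mean of 77.9% (-0.36 ± 0.14, SE, limma adjusted p = 0.178). In the cerebellum they had 9.19, 9.29 and 9.02, again below all 3, a mean of 77.4% (-0.37 ± 0.14, limma adjusted p = 0.101). The df/+ mice did not lie on the other side: their cerebella had 9.60 and 8.92, the second of which was the lowest of the 8 mice. In cortex and brain stem the dp/+ means were 97.9% and 100% of wild type.

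Faah, the hydrolase that ends anandamide signalling, was highest in the cortex and lowest in the bulb, over a range of 1.99-fold in +/+ mice. The values were 9.62, 9.73 and 9.78 in the cortex, 9.08, 9.38 and 9.02 in brain stem, 9.10, 8.93 and 9.02 in the cerebellum and 8.67, 8.68 and 8.79 in the bulb (limma F test, adjusted p = 3.06e-06). Cerebellum and brain stem were not told apart (-0.14, 95% interval -0.36 to 0.07). In the bulb Faah had the steepest tested slope of the enzymes, -0.13 (interval -0.26 to -0.003; limma adjusted p = 0.811), with 8.80 and 8.84 in df/+ mice above all +/+ mice and 8.59, 8.68 and 8.55 in dp/+ mice. In the brain stem the df/+ order was the opposite, 8.98 and 8.93 below all +/+ mice (86.8%, limma adjusted p = 1).

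**Figure D3:**
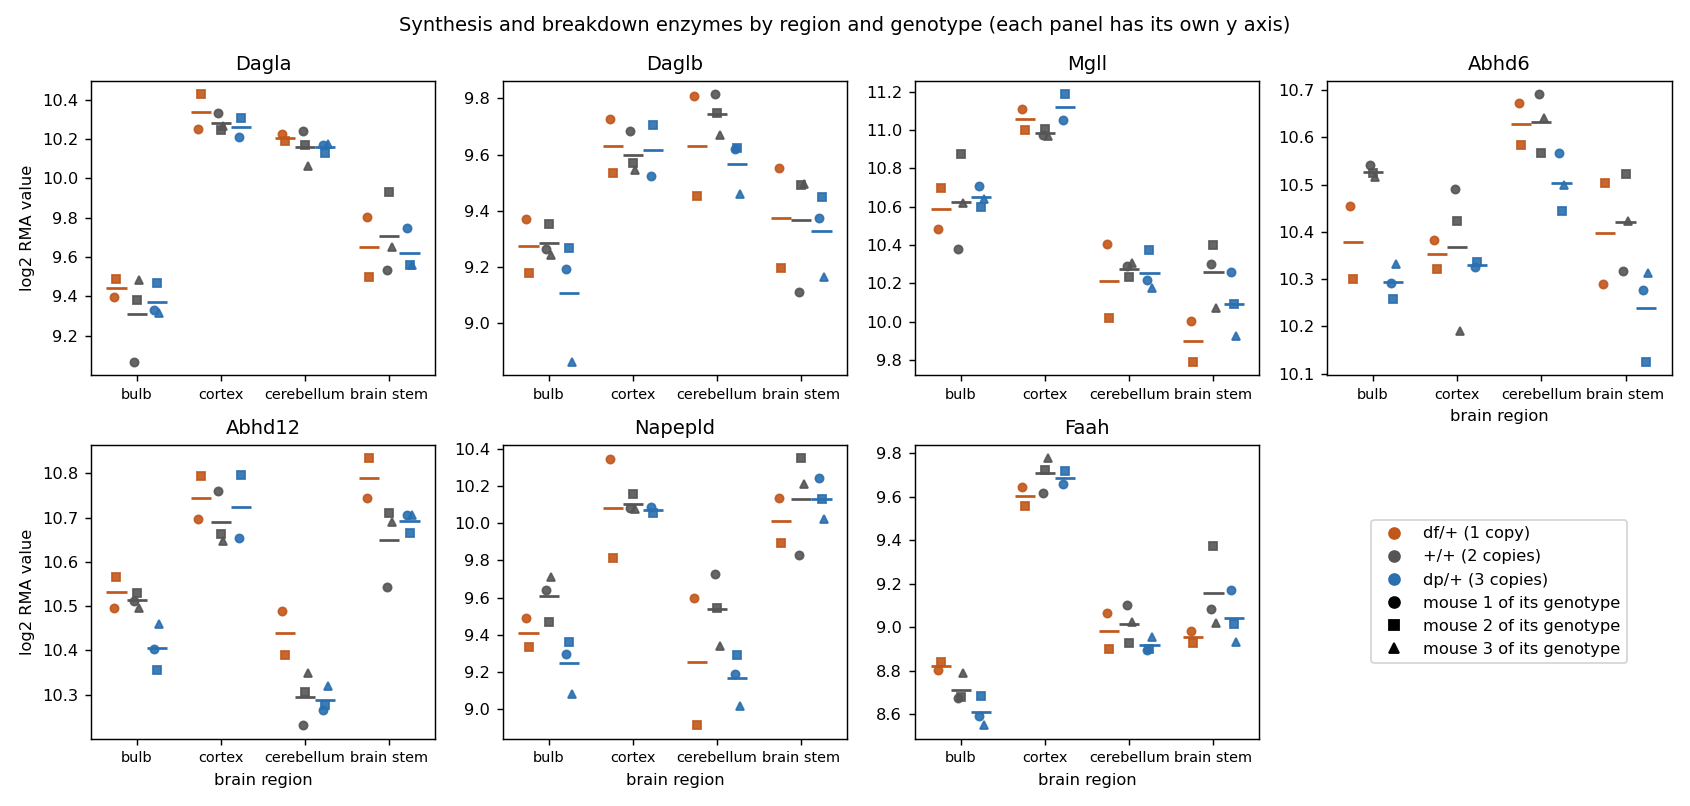
Levels of the 7 enzymes (log2 RMA value) in each region sample, 1 panel per gene, by region and genotype; points are mice and bars are genotype means. The regional steps in Dagla and Faah, lowest in the bulb, are larger than the differences between genotypes, and the dp/+ mice lie below the +/+ mice for Napepld in bulb and cerebellum.

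Read together, 7 of the 8 genes differed between regions of wild-type brain, against 58.0% of all genes. Pair by pair, 6 of 8 differed between bulb and cortex, all lower in the bulb, where 35.7% of genes passed. Between bulb and cerebellum 6 differed (4 lower in the bulb, 37.6% of genes), and between bulb and brain stem 5 (4 lower in the bulb, 32.6%). Between cortex and cerebellum 6 differed (4 higher in the cortex, 37.2%), between cortex and brain stem 4, all higher in the cortex (27.3%), and between cerebellum and brain stem 5 (3 higher in the cerebellum, 36.8%). That makes 32 of 48 comparisons. The count was 21 without +/+ mouse 2. The calls lost included larger differences: Napepld in the bulb against cortex and brain stem, and Dagla and Faah in the bulb against brain stem. The smaller bulb and cerebellum differences of Faah and Abhd12 were also among those lost.

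**Figure D4:**
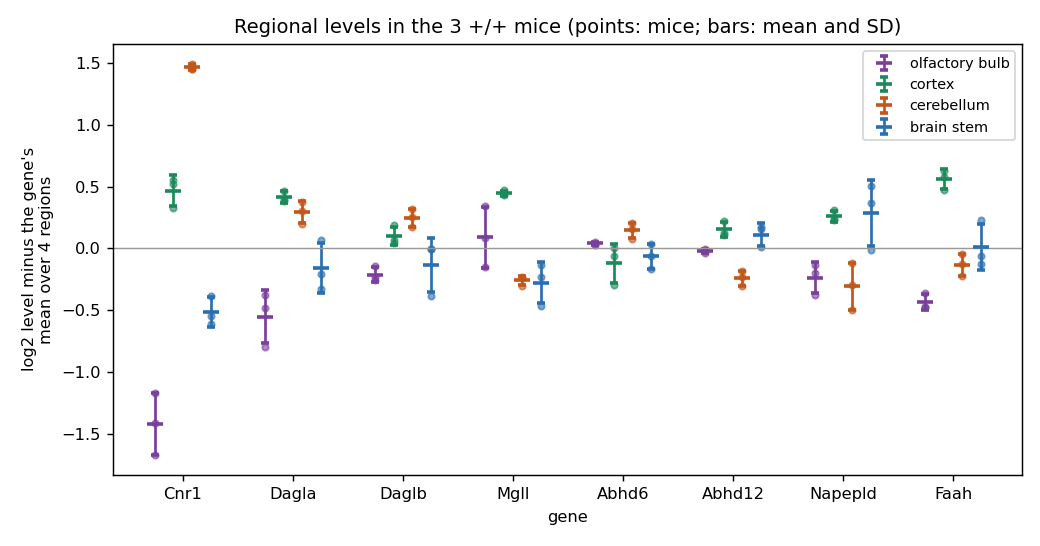
Level of each of the 8 genes by region in +/+ mice, shown as the log2 difference from the gene's own mean over the regions; points are the 3 mice and bars the mean and SD. Cnr1 spans 2.89 log2 units from bulb to cerebellum, while the enzymes span 0.26 (Abhd6) to 0.99 (Faah).

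By copy number, leaving out Cnr1 where the bulb enters, 0 of the 8 genes passed in any comparison. The comparisons of df/+ and of dp/+ with +/+ share the +/+ mice. For slopes the percentage of all genes that passed was 0.0953% for cortex, 0.115% for cerebellum and 0.120% for brain stem, and across the whole brain, with 1 value per mouse, it was 0.110%. For df/+ against +/+ it was 0.291% for bulb, 0.100% for cortex and 0.0702% for cerebellum. For dp/+ against +/+ it was 2.27% for bulb, 0% for cortex, 5.54% for cerebellum and 0.0150% for brain stem. A count of 0 among 8 genes is near these background rates. Unadjusted p-values under 0.05 numbered 1 of 7 genes for the bulb slope (1204 of all 19938) and 0 of 8 for each other slope. For df/+ they numbered 2 of 8 in the brain stem (831 of all genes) and 0 in the other regions. For dp/+ they numbered 2 of 7 in the bulb (3560 of all genes), 1 of 8 in the cerebellum (5679), 1 of 8 in the brain stem (709) and 0 in the cortex (3143).

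In the dp/+ cerebellum all 8 genes had a fitted difference below 0, with a median of -0.12 against -0.02 over all genes. Among the brighter genes only, the median over all of them was also -0.12. The count was 4 of 8 after quantile normalisation within regions and also after cyclic loess, so the direction depends on the scaling. All dp/+ cerebella lay below all +/+ cerebella for 3 of 8 (Cnr1, Daglb and Napepld), and the same held for 20.3% of all genes. In the bulb it held for 3 of the 7 enzymes (Abhd6, Abhd12 and Napepld) and for 8.82% of all genes. For df/+ mice no such share was computed. The cases above where both df/+ mice lay outside the +/+ range are therefore a description only.

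**Figure D5:**
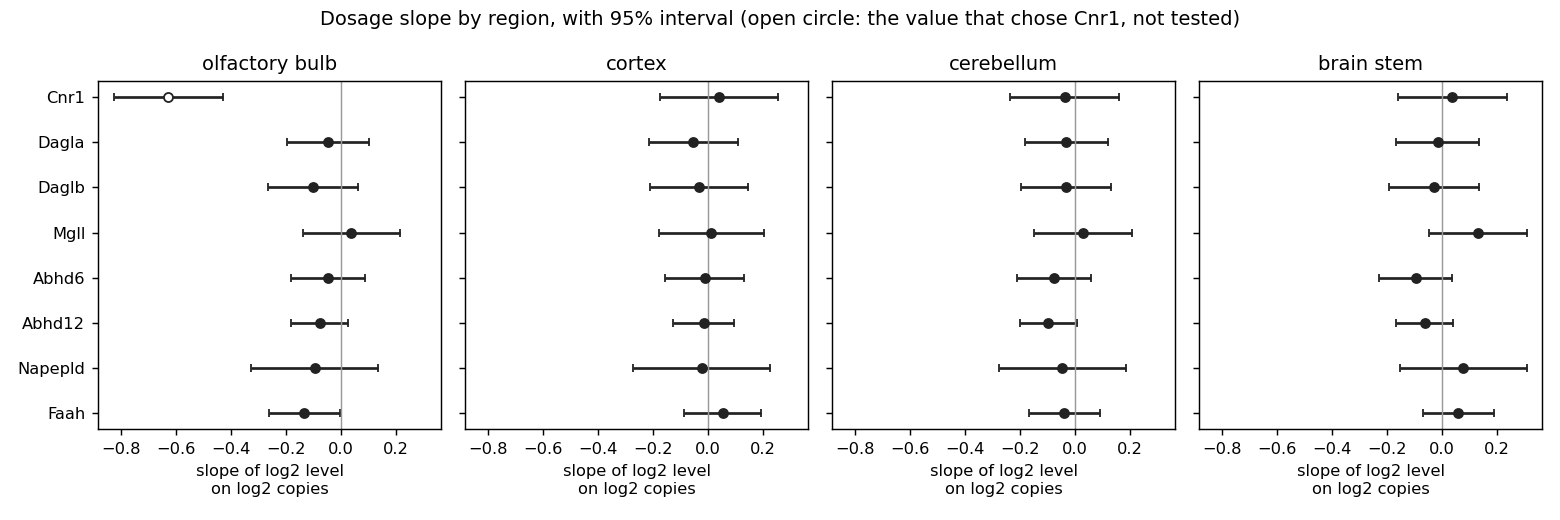
Slope on log2 copies of each gene in each region with its 95% interval from limma; 0 is no relation. The bulb slope of Cnr1, -0.63, chose the gene and is drawn as a description, and the slopes of Cnr1 elsewhere lie between -0.04 and 0.04.

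The wider pathway was read from 5 lists with 37 measured genes. By region 28 of 37 passed in +/+ mice, where 58.0% of all genes did, and the counts of the single lists are to be read against that share. Of the other receptors and receptor-binding proteins 3 of 8 did: Sgip1, an endocytic adaptor that binds CB1 (limma adjusted p = 1.22e-05), Cnrip1, which binds the receptor's tail (0.000113), and Gpr18 (0.0427). Sgip1 and Cnrip1 were highest in the bulb, at 11.38 and 10.65, where Cnr1 was lowest. Cnr2, the cannabinoid receptor of immune cells, lay between 5.71 and 5.85 in all regions, in the low part of the array's range.

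Of the genes that supply the 2-AG precursor, 7 of 7 passed, against 58.0% of all genes. Grm5, the metabotropic glutamate receptor that triggers phospholipase C, averaged 11.95 in the cortex, 11.27 in the brain stem and 11.18 in the bulb but 8.55 in the cerebellum (limma adjusted p = 1.66e-13). Chrm3, a muscarinic receptor of the same pathway, fell the same way, from 10.14 in the cortex to 6.50 in the cerebellum (1.86e-13), and Chrm1 also passed (1.62e-09). Plcb4, the phospholipase of Purkinje cells, was the reverse, with 12.21 in the cerebellum and 10.80 in the cortex (3.27e-09).

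Of the 8 other genes of acylethanolamine synthesis, 6 were regional. Plaat1 averaged 9.24 in the cortex and 9.25 in brain stem, and 8.06 in the bulb and 7.82 in the cerebellum (limma adjusted p = 4.13e-09), which is the same pair above the same pair as for Napepld. Gdpd3 (2.82e-08), Abhd4 (1.27e-05) and Gde1 (0.00295) also passed. Of oxidation and carrier genes 6 of 8 passed. Ptgs2, the cyclooxygenase that oxygenates 2-AG, was highest in the cortex at 10.15 and lowest in the cerebellum at 6.98 (2.62e-07), and the lipid carrier Fabp7 was highest in the bulb at 13.51 (1.29e-08). All 6 presynaptic effectors passed, among them Cacna1a, the P/Q-type calcium channel on which CB1 acts, at 11.93 in the cerebellum and 10.57 in the bulb (2.05e-06).

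With copy number, 1 of the 37 pathway genes passed the slope test in every region, and that was Gdpd3, a lysophospholipase D that lies inside the rearranged segment. Its bulb level was 5.56 ± 0.18 in df/+ mice (n = 2), 9.40 ± 0.35 in +/+ mice (n = 3) and 10.04 ± 0.13 in dp/+ mice (n = 3). Its slopes were 2.85 for bulb, 1.77 for cortex, 2.10 for cerebellum and 2.09 for brain stem. Its df/+ levels lie in the low part of the array's range, as those of Cnr2 do, so the size of these slopes is not exact. The median slope of the 37 genes in the bulb was -0.01 against 0.01 over all genes. In the dp/+ cerebellum Gdpd3 rose (0.52, limma adjusted p = 0.0366), as did Fabp7 (0.47 ± 0.11, SE, adjusted p = 0.0227) and Gpr18 (0.38 ± 0.11, adjusted p = 0.0403), where 5.54% of all genes passed. The Gpr18 call was lost without any 1 of the 6 +/+ and dp/+ mice, with differences of 0.35 to 0.43, and the Fabp7 call without +/+ mouse 1 or 2 or dp/+ mouse 1. The Gdpd3 call was lost without +/+ mouse 2 or 3, dp/+ mouse 1 or 3, or either df/+ mouse, with differences of 0.40 to 0.56. After quantile normalisation within regions Gpr18 (limma adjusted p = 0.0703) and Fabp7 (0.0509) also missed the threshold, and after cyclic loess Gpr18 (0.0866) and Gdpd3 (0.0521) did. Gpr18 missed it too with the first array of each sample (limma adjusted p = 0.0716) and with each region fitted alone (0.0672). In df/+ cerebella, Fabp7 (12.51) and Gpr18 (7.19) also averaged above the +/+ means of 12.19 and 6.88. In the dp/+ bulb Gdpd3 also rose past the threshold (0.64), where 2.27% of all genes passed. That call was lost with each region fitted alone, and without +/+ mouse 2, +/+ mouse 3 or dp/+ mouse 2.

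The genes most like Cnr1 over all 31 region samples were Adcy1 (Pearson r = 0.978), Rims1 (0.978), Cadps2 (0.977), Zbtb18 (0.976) and Garnl3 (0.973). Adcy1, a calcium-stimulated adenylyl cyclase, stood in +/+ mice at 12.50 in the cerebellum, 11.64 in the cortex, 10.77 in the brain stem and 9.73 in the bulb, the order of Cnr1. Cadps2, a vesicle priming protein, stood at 11.12, 9.66, 8.93 and 7.69. These samples share mice, and the differences between regions make up most of the r. Among the enzymes, Dagla (0.87) and Daglb (0.78) came nearest to Cnr1, and Abhd12 (-0.28), Napepld (-0.11) and Mgll (-0.04) had values below 0.

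Over the 8 bulbs alone the nearest genes were others: Ndst3 (0.974), Lmo7 (0.965), Nell2 (0.964), Synj2 (0.963) and Lancl3 (0.961). Ndst3, a heparan sulfate sulfotransferase, averaged 8.77 in df/+, 8.45 in +/+ and 8.12 in dp/+ bulbs, a slope of -0.41. Nell2, a secreted glycoprotein of neurons, averaged 11.38, 11.03 and 10.96. These genes were picked for their likeness to Cnr1 in the samples that chose it, so their slopes are a description. Of the enzymes, Abhd12 (0.79) and Faah (0.68) were nearest to Cnr1 among bulbs, and Abhd6 and Napepld (0.10 each) farthest.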

How the data were processed

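The deposited values are log2 summaries of 35556 probe sets on 37 arrays; per the submitters' processing notes the authors used RMA in Affymetrix Expression Console, with no versions given. Base 2 was read from the values, which run from 3.29 to 14.5. The number of arrays limits the precision, and the labels give no batch. Probe sets were named from the array's annotation table: 21789 have 1 symbol, 1621 several and 12146 none, and 21698 of the named identifiers matched RefSeq. The probe set with the highest mean stood for each gene. The 2 arrays of a sample were averaged. limma 3.58.1 in R 4.3.3 (lmFit, eBayes) fitted regional differences in +/+ mice with the mouse as a fixed block, and slopes on log2 copies and genotype contrasts over all 31 samples with a random block per mouse (consensus correlation 0.15 and 0.12). P-values were adjusted by Benjamini and Hochberg over 19938 genes in each comparison, with a threshold of 0.05. The procedure was tested on simulated data. The members, lists and tests were chosen with earlier results of these data known. Named are all 8 members; per pathway list up to 4 genes past the threshold; Gdpd3; the 5 genes most like Cnr1 over all samples and over bulbs; and the forebrain glutamatergic genes in the bulb. Single markers of the brain stem were named after their values were seen.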

Additional observations from a re-analysis of the deposited data

Results flagged for a closer look

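The patterns listed here were picked by a rule: every mouse of a genotype lay above the wild-type mean in 1 region and below it in another. None of these differences between regions was tested for this purpose, and the share of all genes that meet the rule was not computed. The test that slopes differ between regions called 0 of the 7 enzymes. Cnr1 in df/+ mice was 0.62 above the +/+ mean in the olfactory bulb on the log2 scale, a value that helped choose the gene, and -0.12 from it in cerebellum and -0.15 in brain stem. Mgll in df/+ mice was 0.073 above in the cortex and -0.36 from the +/+ mean in the brain stem. Abhd12 in dp/+ mice was -0.11 from the +/+ mean in the olfactory bulb and 0.044 above in the brain stem. Faah in df/+ mice was 0.11 above in the olfactory bulb, -0.11 from the mean in cortex and -0.20 in brain stem. With 2 or 3 mice per genotype, no group was large enough for a check of outlying samples.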

How the results depend on the processing

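Each choice was changed alone: quantile normalisation within regions, median centring or cyclic loess; a single array per sample; all probe sets or the brighter genes; array weights or a trended prior; a slope on copies as such; regions in separate fits, over all 8 mice or without the block per mouse; a replicate block; and each mouse left out. The tests on copy number, which leave out Cnr1 where the bulb enters, gave 0 calls under each of these that applied. The regional count of 7 of 8 ran from 6 to 8 (6 to 7 with a mouse left out), and the pairwise count of 32 of 48 from 21 to 38 (21 to 28 with a mouse left out). Without +/+ mouse 2, Abhd12 lost its regional call, and Abhd6 gained one with cyclic loess (adjusted p = 0.033) and over all 8 mice. Over all values of single genes under these alternatives, 74 lost and 9 gained a call, and no called value changed sign. Another 33 moved by more than their error: uncalled values that also changed sign, or untested values of Cnr1. The other 3008 stayed on their side of the threshold. They include uncalled values that moved by more than their error but kept their sign. The bulb slope of Cnr1 was -0.51 with array weights. Over 7 pairs of mice with the same number, deviations correlated at -0.38 to 0.17, against -0.39 to 0.39 for pairs with other numbers. Deviations were taken from the genotype mean, so those of the 2 df/+ mice mirror each other. These values therefore cannot decide whether the numbers pair the mice. With the replicate block the tests on copy number gave 0 calls and the bulb slope of Cnr1 was -0.63. Without 1 of 2 df/+ mice, the other is assumed to vary like the remaining genotypes.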
